A study of Mus musculus with 8 samples.

Results

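Ribosomal protein genes encode the structural proteins of the cytosolic ribosome, and their promoters are described here as a housekeeping reference for open chromatin in granule neuron progenitors (GNPs) of the mouse cerebellum. The members were the autosomal protein-coding genes of the GENCODE M21 annotation (mm10) whose symbols begin with Rpl or Rps and a digit, leaving out the Rps6k kinases. This rule took 84 of the 20807 autosomal protein-coding genes, spread over 19 chromosomes, with 13 of them on chromosome 7. Of these, 40 encode canonical proteins of the large 60S subunit and 29 encode canonical proteins of the small 40S subunit. A further 8 are paralogues, 6 carry a pseudogene-style -ps symbol although the annotation lists them as protein coding, and Rps19bp1 encodes a protein that binds Rps19 and is not itself a ribosomal protein.

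Open chromatin was mapped by ATAC-seq, which reads out the sites where Tn5 transposase can enter the DNA, in GNPs isolated from mouse cerebellum at postnatal day 7. The study compared 3 genotypes of Chd7, which encodes an ATP-dependent nucleosome remodeller, to ask how its loss affects accessibility. The study describes them as Chd7 f/f without Cre (WT, 3 libraries), Atoh1-Cre::Chd7 f/+ (het, 2 libraries) and Atoh1-Cre::Chd7 f/f (mutant, 3 libraries). Atoh1-Cre recombines in the granule cell lineage, the labels give the strain as C56Bl6/J for every library, and the WT and mutant replicates are described as technical. The libraries of each genotype had been pooled before peaks were called, so that each genotype is represented by 1 list, no spread between libraries can be given, and no difference between genotypes was tested.

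The WT, mutant and het lists held 152984, 174407 and 106974 peaks from 50394313, 51030229 and 30923002 tags after filtering. Their heights are pileups, the number of extended tags that cover a summit. Only 1 tag per position and strand was kept and tags were extended by 90 bp in WT, 88 bp in mutant and 200 bp in het, so that a pileup could not exceed 180, 176 and 400, respectively. Het pileups and widths are printed beside those of the other lists but are not on the same scale. Het heights were therefore compared with the other lists only by rank or percentile. Of the 8 granule progenitor markers examined (Atoh1, Zic1, Zic2, Pax6, Barhl1, Neurod1, Gli1 and Ccnd2), 7 had a promoter peak in WT and het and 8 in mutant, whereas 0 of 3 microglial markers had one in any list. Promoter peaks were also found in WT at 3 of 4 Purkinje and interneuron, 1 of 3 oligodendrocyte, 2 of 3 astroglial and 2 of 3 endothelial markers, with median pileups of 19, 32, 19.5 and 23.5 compared with 59 for the granule progenitor markers. What part of the ribosomal protein signal came from other cells was not tested.

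As background, every growing cell needs ribosomal proteins in matched amounts, since each ribosome holds a single copy of nearly all of them. Mammalian ribosomal protein genes are short, are dispersed over the genome and usually start transcription at a C within a pyrimidine tract, the 5' terminal oligopyrimidine motif that ties their translation to mTOR signalling. Many carry small nucleolar RNAs in their introns, and their mRNAs have given rise to numerous processed pseudogenes.

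Promoter sequences of 300 bases, from 250 before to 50 after a gene's start, were taken from RefSeq (GRCm38.p6) and were held for 59 of the 84 members. Where a gene had several starts, the first listed was used. Stretches from 150 bases before to 20 bases after the start are given for the members on which the results below turn. Capitals mark CCGGAA (the core of ETS factor sites), AAGATGG (YY1) and TCTCGCGA (ZBTB33) on either strand, and runs of at least 6 pyrimidines on the coding strand that lie within 20 bases of the start or hold it. Where a pyrimidine run and a motif overlap, the capitals run together. Rpl37 and Rpl15 had the tallest peaks and Rpl4 the lowest. Rpl37 is shown from chr15:5116463-5116632 (plus strand), Rpl15 from chr14:18270967-18271136 (minus strand) and Rpl4 from chr9:64173237-64173406 (plus strand).
Rpl37: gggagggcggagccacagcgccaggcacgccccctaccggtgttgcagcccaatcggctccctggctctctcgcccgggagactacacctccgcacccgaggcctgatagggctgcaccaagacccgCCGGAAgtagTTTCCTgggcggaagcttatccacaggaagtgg
Rpl15: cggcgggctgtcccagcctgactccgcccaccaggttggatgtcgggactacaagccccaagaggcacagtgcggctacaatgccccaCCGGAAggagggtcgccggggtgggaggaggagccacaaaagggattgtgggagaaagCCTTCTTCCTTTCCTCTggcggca
Rpl4: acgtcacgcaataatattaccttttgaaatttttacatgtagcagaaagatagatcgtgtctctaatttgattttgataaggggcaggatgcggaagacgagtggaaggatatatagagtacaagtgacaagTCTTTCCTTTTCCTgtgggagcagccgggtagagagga

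Rps6, whose protein is the substrate of the S6 kinases, is shown from chr4:86857348-86857517 (minus strand) because it holds ETS and ZBTB33 letters together with a pyrimidine tract at its start. Rps19bp1 at chr15:80264287-80264456 (minus strand) and Rpl10a at chr17:28328321-28328490 (plus strand) had the highest and the lowest mutant over WT height.
Rps6: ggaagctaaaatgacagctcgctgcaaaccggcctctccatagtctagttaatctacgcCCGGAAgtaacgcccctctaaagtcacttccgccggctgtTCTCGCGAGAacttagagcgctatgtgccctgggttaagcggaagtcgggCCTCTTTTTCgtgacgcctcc
Rps19bp1: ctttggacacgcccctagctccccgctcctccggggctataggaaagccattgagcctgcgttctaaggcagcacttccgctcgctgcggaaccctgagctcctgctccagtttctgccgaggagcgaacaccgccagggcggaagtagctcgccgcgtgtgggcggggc
Rpl10a: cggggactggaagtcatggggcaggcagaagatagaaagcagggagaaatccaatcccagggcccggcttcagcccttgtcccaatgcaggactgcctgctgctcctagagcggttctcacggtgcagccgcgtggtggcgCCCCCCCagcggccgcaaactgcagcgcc

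Rps27 at chr3:90213629-90213798 (minus strand) had a peak in every list, whereas Rps27rt at chr9:114982720-114982889 (minus strand), a retrogene copy of Rps27, and Rpl39l at chr16:10170078-10170247 (plus strand), a testis-enriched paralogue of Rpl39, had none.
Rps27: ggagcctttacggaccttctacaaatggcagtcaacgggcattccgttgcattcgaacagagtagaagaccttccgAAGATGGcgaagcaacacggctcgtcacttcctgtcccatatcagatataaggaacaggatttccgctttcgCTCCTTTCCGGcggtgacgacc
Rps27rt: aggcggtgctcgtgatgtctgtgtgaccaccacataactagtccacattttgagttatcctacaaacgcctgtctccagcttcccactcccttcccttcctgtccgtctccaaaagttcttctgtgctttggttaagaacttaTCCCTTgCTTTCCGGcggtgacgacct
Rpl39l: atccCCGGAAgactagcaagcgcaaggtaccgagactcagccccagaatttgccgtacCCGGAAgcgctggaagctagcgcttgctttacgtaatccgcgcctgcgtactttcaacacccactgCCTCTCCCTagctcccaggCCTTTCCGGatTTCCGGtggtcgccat

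A promoter peak, that is a peak whose summit lay within 1 kb of a protein-coding transcript start, was present at 74 of the 84 members (88.1%, Wilson 95% interval 79.5 to 93.4) in WT, where 69.4% of all autosomal protein-coding genes had 1 or more. The same 74 members had a peak in het, against 67.3% of all genes, and in mutant, against 70.4%. No member had a peak in only some of the lists, which was the case for 1254 of all genes (6.03%). All 69 canonical members had a promoter peak in each list, as did Rps19bp1 and 4 of the 8 paralogues, Rpl7l1, Rpl22l1, Rpl36al and Rps27l. Counting every peak, the member promoters had 83 in WT, against 79 (het) and 92 (mutant). The full lists ranked alike by length, at 152984 (WT), 106974 (het) and 174407 (mutant) peaks. Among all genes with a promoter peak, a single one was likewise rarest for mutant (67.1%, against 72.5% for WT and 82.8% for het). Whether the member counts differ beyond the length of the lists was not tested.

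The 10 members without a promoter peak were Rpl3l, Rpl10l, Rpl39l and Rps27rt and the 6 genes with -ps symbols, Rpl9-ps1, Rpl9-ps6, Rpl10-ps3, Rpl36-ps4, Rpl36a-ps1 and Rps12-ps3. Rpl3l is a striated muscle paralogue of Rpl3, and Rpl10l and Rpl39l are paralogues used in male germ cells. In WT their nearest summits lay between 2.69 kb (Rps12-ps3) and 22.6 kb (Rpl39l) from a start, while the farthest summit of a member counted as having a peak lay at 505 bp (Rpl38). The annotation has no autosomal protein-coding entry under the symbols Rps4l and Rpl37rt, and both were left aside.

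Rps27 and Rps27rt shared transcribed but little upstream sequence. Their promoter entries shared an unbroken stretch of 38 bases that began at base 2 of the Rps27 transcript and at base 1 of Rps27rt. In the 100 bases before this stretch, only 21 positions were identical. Of 249 autosomal loci annotated as pseudogenes and named after a ribosomal protein, which are not members, 20 had a peak within 1 kb of their 5' end in WT (8.03%, 5.26 to 12.1), and 13 and 22 did in het and mutant. Since transcribed parts of members have such copies, reads that align to several places matter for them. The study's methods state a single-alignment requirement for a bowtie mapping, and how such reads were treated in the mapping used for WT and mutant is not given in the sources used here.

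The member promoters were only moderately taller than the promoters of other genes in WT. Their tallest promoter peaks had pileups from 24 to 108 with a median of 58.5 (95% interval of the median 54 to 65), or 1.16 per 1000000 tags, compared with a median of 52, or 1.03 per 1000000 tags, over the 14449 autosomal genes with a promoter peak. The median member stood at the 59.7th percentile of all promoter peaks, and 47 of the 74 members lay above the median of all genes. In the top 10% of promoters there were 12 members (16.2%, against 10.4% of all genes), and in the lowest 20% there was 1 (1.35%, against 19.5%). The spread among members was smaller than that among all genes, with coefficients of variation of 29.2% and 46.4%. This was not particular to the members. The coefficient was 35.9% for mitochondrial ribosomal protein genes, 28.8% for proteasome subunit genes and 22.9% for the translation factor genes examined below. Genes were not treated as replicates and these shares were not tested.

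**Figure D1:**
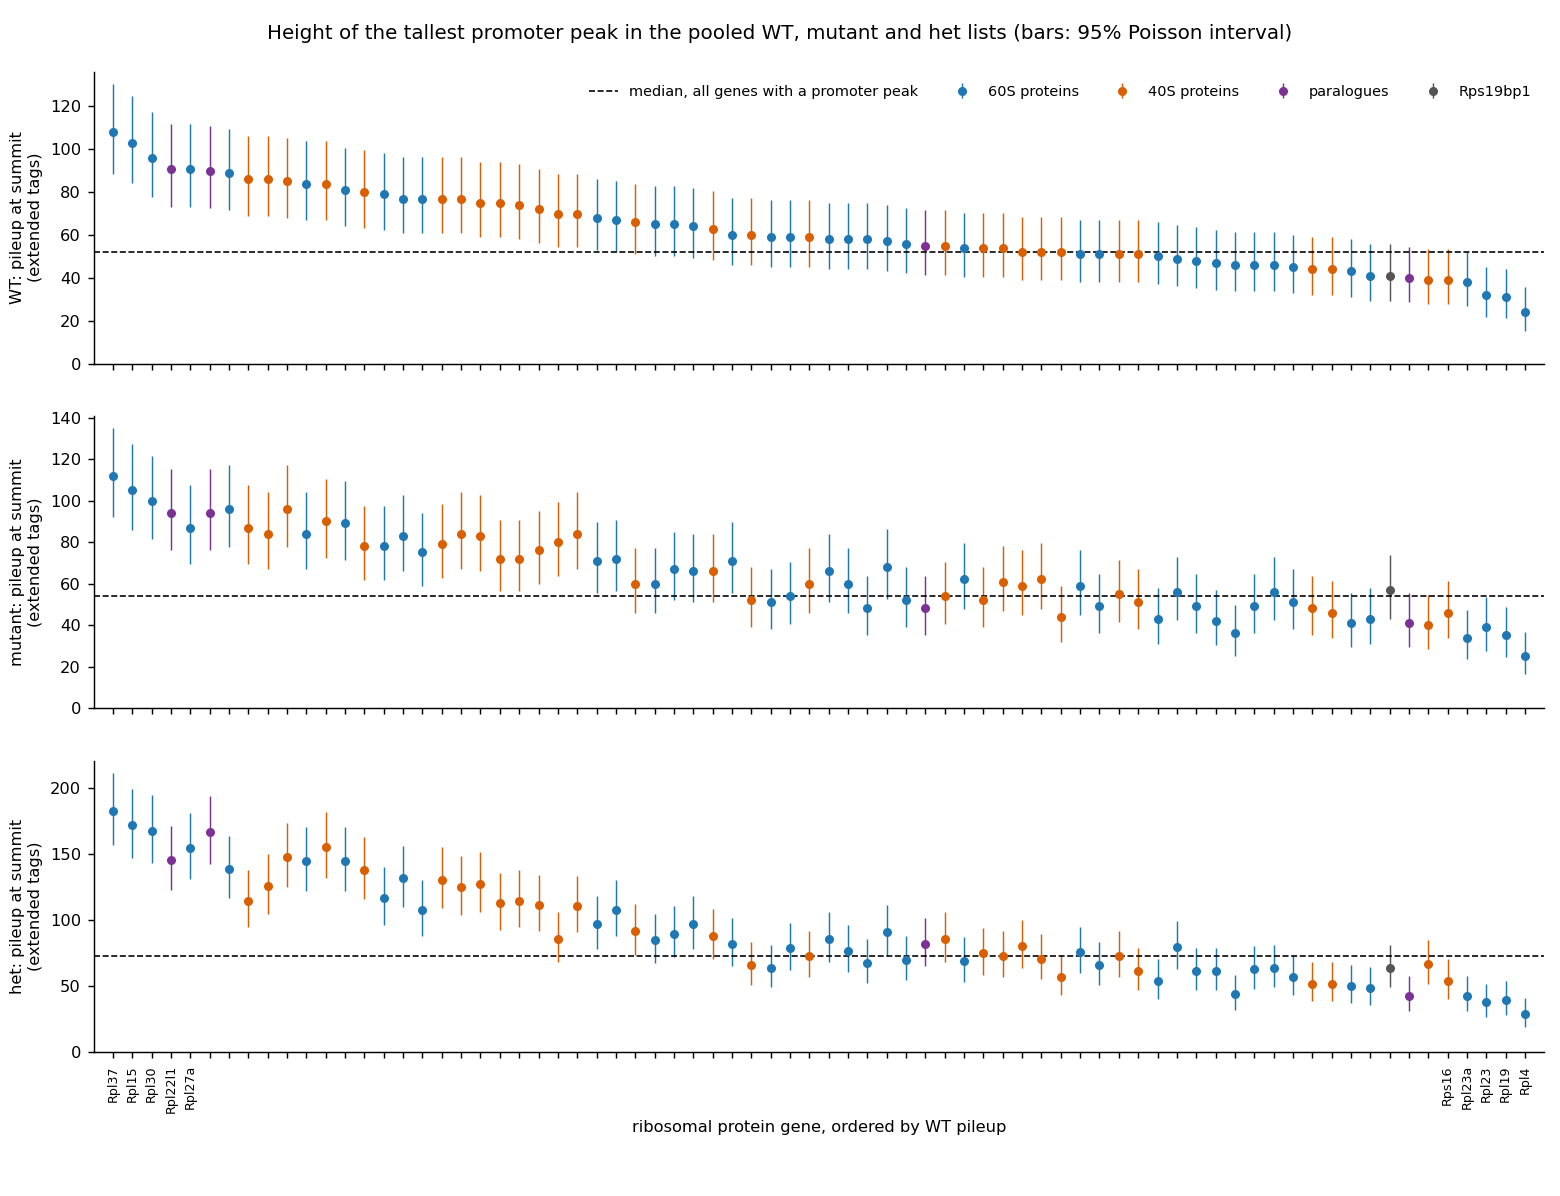
Pileup at the summit of the tallest promoter peak (extended tags, y axis) of the 74 ribosomal protein genes with a peak, in the order of their WT pileup with the 5 tallest and the 5 lowest named, for the pooled WT, mutant and het lists; points are coloured by subunit, bars are 95% Poisson intervals and the dashed line is the median over all genes with a promoter peak (52 in WT, 54 in mutant and 73 in het). The order found in WT, from Rpl37 at 108 to Rpl4 at 24, largely recurs in the other lists.

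The tallest member peak was that of Rpl37, a zinc finger protein of the 60S subunit, at chr15:5116043-5117117. Its pileup was 108 in WT, 112 in mutant and 183 in het. Rpl15, a core 60S protein whose start lies close to that of Nkiras1, had a pileup of 103 in WT, 105 in mutant and 172 in het. Among all promoter peaks of a list, they stood at the percentiles 99.3, 99.3 and 98.8 for Rpl37 and at 98.4, 98.2 and 97.8 for Rpl15 in WT, mutant and het. Rpl30 followed with 96, 100 and 168 in the same order. Rpl22l1, a paralogue of Rpl22, had 91, 94 and 146, and Rpl27a had 91, 87 and 155. At these promoters the pileup took up a large share of the highest value that the WT list allows, up to 108 of 180 at Rpl37, so that differences between them are compressed.

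The lowest member peak was that of Rpl4, which lines the exit tunnel of the 60S subunit, at chr9:64173330-64173754, with pileups of 24 in WT, 25 in mutant and 29 in het. Rpl19 had 31, 35 and 40 and Rpl23, a 60S protein that also binds Mdm2, had 32, 39 and 38 in WT, mutant and het. Rpl23a, which sits at the tunnel exit, had 38, 34 and 43. The next lowest, Rps15 and Rps16 of the 40S subunit, tied at 39 in WT and had 40 and 46 in mutant and 67 and 54 in het. Rpl4 was thus the sole member in the lowest 20% of promoters, at the 15.8th percentile in WT, 16.2nd in mutant and 13.9th in het.

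Neighbours in this order could not be told apart. None of the 73 adjacent pairs had Poisson intervals that failed to overlap, and these intervals cover counting error alone. Since the members were ordered by these same pileups, overlap of neighbours was nearly given. The ends of the order were also picked from the same values, so that some distance from the other members was given. The interval of Rpl37 (88.6 to 130) lay above those of 51 members, and the interval of Rpl4 (15.4 to 35.7) lay below those of 56. The 10 tallest members of WT included 8 of the 10 tallest in mutant and 7 of the 10 tallest in het, and the 7 shared by all lists were Rpl15, Rpl22l1, Rpl27a, Rpl30, Rpl36al, Rpl37 and Rps29. At the low end, Rpl4, Rpl6, Rpl7l1, Rpl19, Rpl23 and Rpl23a were among the 10 lowest in every list. Across the 74 members Spearman's rho was 0.932 between WT and mutant pileups and 0.95 between WT and het (0.970 and 0.966 over the 13746 genes with a peak in every list), given as a description since the points share the same libraries.

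The subunits differed little in height. The 40 canonical 60S members had a median WT pileup of 58 (95% interval 50 to 65) and the 29 canonical 40S members one of 63 (52 to 75). Both extremes belonged to the 60S subunit, which ranged from 24 to 108, whereas the 40S subunit ranged from 39 to 86. Among the paralogues, Rpl36al had pileups of 90, 94 and 167 in WT, mutant and het, Rps27l, a paralogue of Rps27, had 55, 48 and 82, and Rpl7l1 had 40, 41 and 43. Rpl36al and Rpl22l1 were among the 6 tallest of all members, and Rpl7l1 among the 10 lowest.

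Other housekeeping groups lay on either side of the ribosomal protein genes. The mitochondrial ribosomal protein genes had a promoter peak at 77 of 78 and a median WT pileup of 54. The proteasome subunit genes had a peak at 37 of 39 and a median of 60, and the 14 translation factor genes examined, all with a peak, had one of 68. Among the latter, pileups in WT ranged from 30 for Eef2, the translocase of elongation, to 88 for Eif3h, a subunit of initiation factor eIF3.

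Ribosomal protein genes that the symbol rule leaves out were measured in the same way. Rplp0, Rplp1 and Rplp2 of the 60S stalk had WT pileups of 62, 48 and 62, with 72, 48 and 54 in mutant and 86, 66 and 84 in het. Rpsa, a 40S protein, had 67, 68 and 88 in WT, mutant and het. Fau, the precursor of Rps30, had 36, 30 and 45. On the X chromosome, the WT, mutant and het pileups were 62, 60 and 75 at Rpl10, 72, 77 and 122 at Rpl36a, 61, 54 and 79 at Rpl39 and 50, 47 and 73 at Rps4x. Each of these fell within the range of the members, from 24 to 108 in WT.

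Member peaks were of ordinary width. In WT the tallest promoter peaks of the members had a median width of 851.5 bp (95% interval 809 to 930) and spanned 378 to 1638 bp, compared with a median of 800 bp over all genes. In het the medians were 897 and 899 bp, and in mutant 815 and 780 bp. With all promoters divided into 10 bins by WT height, 29 members were wider and 45 narrower than the median of the other genes in their bin, with a median difference of -35.8 bp. Width rose with height in the members as in all genes (Spearman's rho 0.519 over 74 members and 0.585 over all genes, as a description).

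**Figure D2:**
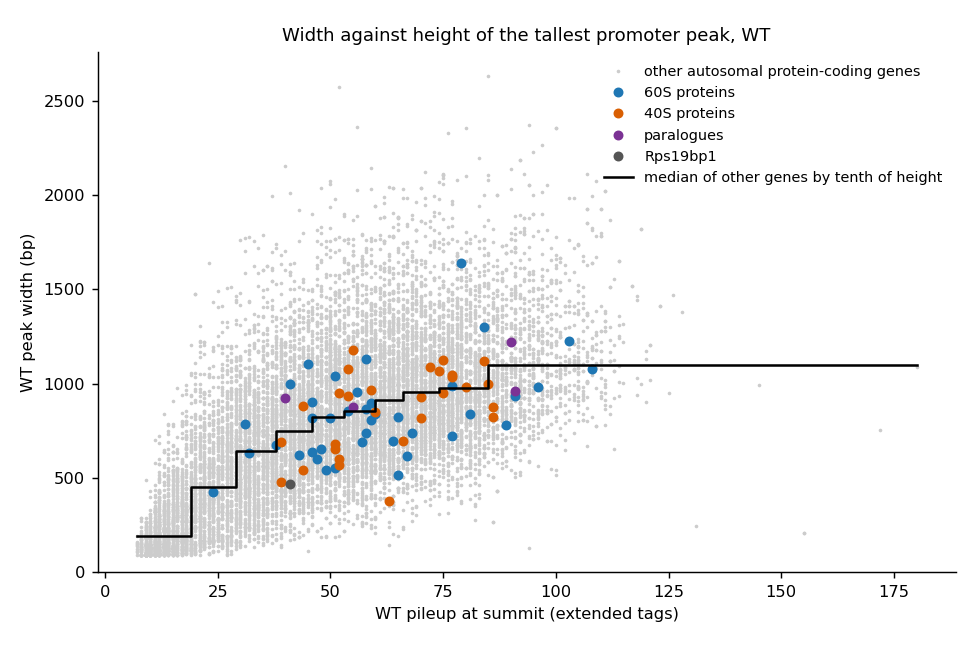
Width in bp (y axis) against pileup at the summit (x axis) of the tallest WT promoter peak of each gene; coloured points are the 74 ribosomal protein genes, grey points the other autosomal protein-coding genes, and the black line is the median width of the grey points in each of 10 bins of height. Members scatter around the line, 29 above and 45 below it.

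The widest member peaks in WT were those of Rpl7 at 1638 bp, Rpl34 at 1298 bp and Rpl15 at 1226 bp. In mutant they measured 1667, 1383 and 1198 bp and in het 2295, 1386 and 1082 bp. The 40S members had a median WT width of 930 bp (697 to 998) and the 60S members one of 816 bp (721 to 896), intervals that overlap.

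The members more often had a single promoter peak than other genes did. In WT a single peak lay within 1 kb of the starts of 67 of the 74 members (90.5%, 81.7 to 95.3), compared with 72.5% of all genes with a promoter peak and 73.9% of the genes in the same bins of height. The shares were 93.2% and 82.8% in het and 78.4% and 67.1% in mutant. Other housekeeping groups had like shares, 87.0% of the mitochondrial ribosomal protein genes and 91.9% of the proteasome genes in WT. Rps14, on chromosome 18, had 4 peaks in mutant, the most of any member. It had 3 in WT, a count that a 60S member also reached, and 2 in het, the highest count there.

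Member peaks in mutant had a median width of 0.982 times that in WT, with 33 wider and 41 narrower. The width was within 10% of that in WT at 43 members (58.1%, 46.7 to 68.7, against 52.7% of all genes). The width in mutant was no more than 50% of that in WT at 2 of the 74 members (2.70%, against 2.58% of all genes). At Rpl19 the peak measured 783 bp in WT, 615 bp in het and 185 bp in mutant, where the promoter held 2 peaks that together covered 369 bp. At Rpl8, a 60S protein near the peptidyl transferase centre, the widths were 654, 519 and 253 bp, and 2 mutant peaks together covered 525 bp. The WT and mutant pileups were 31 and 35 at Rpl19 and 48 and 49 at Rpl8.

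Summits sat close to the annotated starts. The median WT summit of the members lay at -12.5 bp from the nearest start (quartiles -46 and 15 bp, negative values upstream), compared with -27 bp over all genes (-92 and 25 bp). Within 100 bp of a start lay 59 of the 74 member summits (79.7%, 69.2 to 87.3), against 60.6% of all genes, and the shares were 81.1% and 60.8% in mutant and 82.4% and 63.1% in het. In WT the share was also 79.2% for the mitochondrial ribosomal protein genes and 78.4% for the proteasome genes. Measured from the RefSeq start of the 55 members with both a peak and a sequence entry, 44 summits lay within 100 bp (80.0%, against 52.3% of all genes with both).

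**Figure D3:**
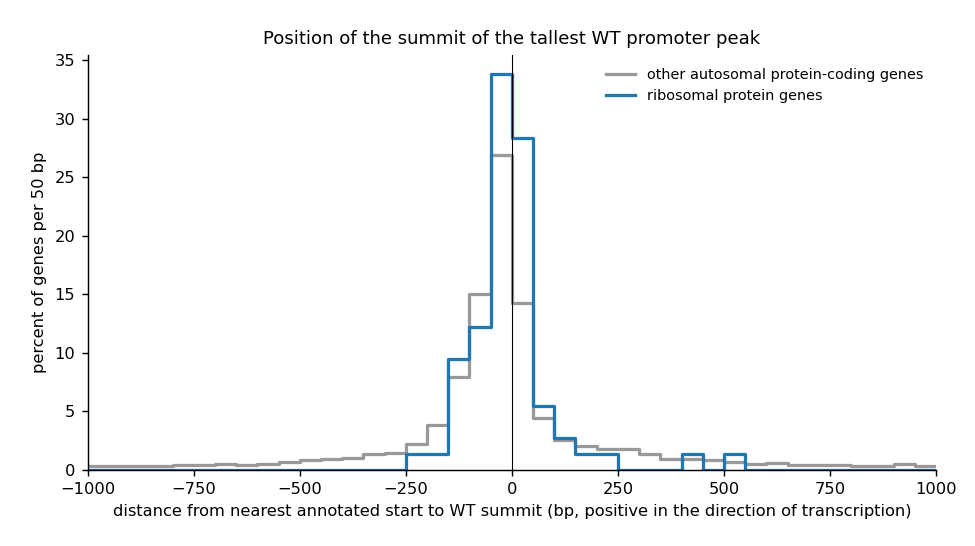
Distance in bp from the nearest annotated start to the WT summit (x axis, positive in the direction of transcription), as the percent of genes per 50 bp (y axis), for the ribosomal protein genes with a peak (blue, n = 74) and the other autosomal protein-coding genes with a peak (grey). The blue line is higher around the start and absent from most of the outer range.

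The summits that lay farthest from a start were those of Rpl38, at 505 bp downstream in WT, 482 bp in mutant and 3 bp in het, and Rpl35, at 446, 461 and 430 bp. At Rpl35 the WT summit lay at -47 bp from the RefSeq start, which is placed farther downstream than the GENCODE start. At Rpl38 it lay 551 bp downstream of the RefSeq start. These distances thus depend on the annotation at Rpl35 but not at Rpl38.

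The mutant over WT ratio of heights at the member promoters was close to that of all promoters in its median. The tallest WT and mutant peaks overlapped at all 74 members, and the mutant over WT ratio of pileups per 1000000 tags had a median of 1.02 (log2 0.03, 95% interval of the median 0.01 to 0.06), compared with 1.04 (log2 0.05) over the 13670 genes with overlapping peaks. No member was 1.5-fold or more higher in mutant, where the share over all genes was 1.14%, and none was 1.5-fold or more lower, where it was 0.395%. With the peak nearest to a start taken in place of the tallest, 1 of 73 members was past the limit, Rps19, at a log2 ratio of -1.603 compared with 0.13 for its tallest peaks. At the heights of the members such differences were rare in any case: the rates in the same bins of WT height give 0.159 members past 1.5-fold in either direction. The counting interval of the ratio included 1 at all 74 members and excluded it at 0.256% of all genes. These intervals are wide: the Poisson formula gave a median error of 0.27 in log2 for a member, above the whole standard deviation of 0.15 among members. Over all genes the 2 values were 0.28 and 0.19. The formula thus overstates the counting error of these pileups. Inclusion of 1 was therefore nearly given and cannot show that heights were equal.

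The members' ratios spread as widely as those of other genes of like height. Their log2 values had a standard deviation of 0.15, the same as the 0.15 of the other genes in the same bins of WT height, compared with 0.19 over all genes, which include many lower peaks. The Poisson formula put the error of a single member at a median of 0.27, more than this spread. In mutant 47 members were higher (63.5%, against 63.2% of all genes) and 27 lower, and centring on the median of all genes turned the median member from 0.03 to -0.02 on the log2 scale. Within 10% of equality lay 46 of the 74 members (62.2%, against 60.7% of all genes). The medians were 0.03 for the 60S members and 0.05 for the 40S members, and among the comparison groups they were 0.04 for the mitochondrial ribosomal proteins, 0.03 for the proteasome and 0.09 for the translation factors.

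**Figure D4:**
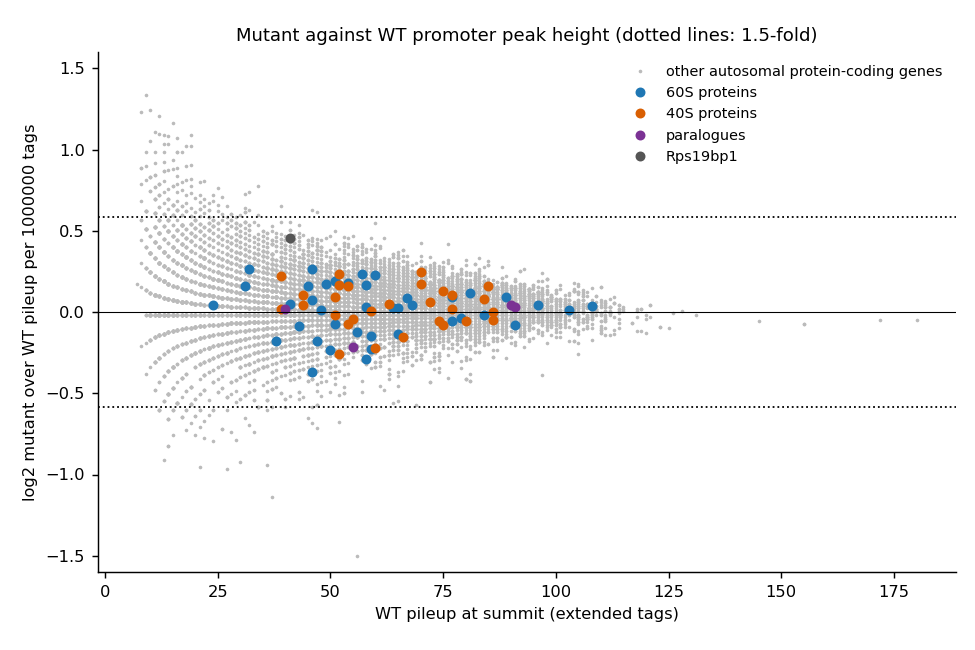
Log2 of mutant over WT pileup per 1000000 tags (y axis) against WT pileup (x axis) for genes whose tallest WT and mutant promoter peaks overlap; coloured points are the 74 ribosomal protein genes, grey points the other 13596 autosomal protein-coding genes, and dotted lines mark 1.5-fold. All coloured points lie between the dotted lines, from -0.37 for Rpl10a to 0.46 for Rps19bp1.

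The largest ratio belonged to Rps19bp1, with a pileup of 41 in WT, 57 in mutant and 64 in het. Its mutant over WT ratio was 1.37 with a counting interval from 0.903 to 2.1. By fold enrichment over the local background, which was 7.79 in WT and 11.8 in mutant, its ratio was 1.51, and it was the sole member past 1.5-fold on that scale. Next came Rpl23 with a ratio of 1.20 (0.735 to 1.98) and Rpl3, a 60S protein that reaches the peptidyl transferase centre, with pileups of 46 in WT, 56 in mutant and 64 in het and a ratio of 1.20 (0.799 to 1.82). Rps3a1 of the 40S subunit had pileups of 70, 84 and 111 and a ratio of 1.19 (0.853 to 1.65). The canonical members thus reached at most 1.20.

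The smallest ratio was that of Rpl10a, a protein of the L1 stalk, with pileups of 46 in WT, 36 in mutant and 44 in het and a ratio of 0.773 (0.485 to 1.22). Rpl7a, which hosts 3 annotated snoRNAs, had pileups of 58, 48 and 68 and a ratio of 0.817 (0.546 to 1.22). Its peak measured 1128 bp in WT and 598 bp in mutant. Rpl32 had 50, 43 and 54 and a ratio of 0.849 (0.552 to 1.30). In none of these did the counting intervals of the WT and mutant pileups separate the genotypes.

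Het heights were compared by percentile among promoter peaks. The median difference of a member between het and WT was -2.04 points (quartiles -6.43 and 2.27), compared with -1.12 points over all genes, and 45 members were lower (60.8%, against 58.9% of all genes) and 29 higher. Between mutant and WT it was -0.2 points, compared with 0.47 points over all genes, with 40 members lower (54.1%, 42.8 to 64.9, against 46.4% of all genes) and 34 higher. A change of more than 10 points between WT and mutant was found at 16 members (21.6%, against 12.8% of all genes), and one between WT and het at 11 (14.9%, against 15.6%). A tag moves a peak by more points in the middle of the height range than at either end, and these shares were not matched for height. The het percentile fell between those of WT and mutant at 21 of the 74 members (28.4%), against 30.8% of all genes. Of the members with the largest and the smallest ratio, Rps19bp1 stood at the 35.0th percentile in WT, the 42.6th in het and the 54.4th in mutant. Rpl10a stood at the 41.9th, 25.3rd and 27.5th, so that het was the lowest. The het list came from fewer tags and other calling settings, and genotype and these settings cannot be told apart.

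The members shared features that the symbol rule did not use. They were short, with a median gene length of 3.33 kb compared with 25.04 kb over all genes with a WT promoter peak. Within their bodies on the same strand, 26 of the 74 hosted annotated snoRNAs (35.1%, 25.2 to 46.5, against 1.53% of all genes with a WT promoter peak), 52 in all, with the most, 5, in Rpl4. The median WT pileup was 57.5 in the snoRNA hosts and 59 in the others. The start of another protein-coding gene lay within 1 kb at 17 members (23.0%, 14.9 to 33.7, against 18.1% of all genes), on the opposite strand at 16 of them. At these 17 the median WT pileup was 54, against 59 at the rest, and 15 members had a tallest peak that was also that of another gene, such as Mgat2 at Rpl36al and Nkiras1 at Rpl15. A peak in the gene body beyond 1 kb of a start was found at 9 members in WT (12.2%, 6.53 to 21.5), against 59.5% of all genes with a WT promoter peak. Among the genes with lengths within the quartiles of the members, 2.505 to 4.805 kb, the share was 14.9% of 941, and 3 of the 36 members of these lengths had one. In het and mutant, 4 and 9 members had a body peak (5.41% and 12.2%), against 52.7% and 61.7% of all genes with a WT promoter peak. Among the genes of the lengths above, the het and mutant shares were 11.4% and 16.4%, and 1 and 4 of the 36 members had one.

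In sequence composition the members differed from other promoters mainly in their CpG content. The RefSeq start used lay within 100 bp of the WT summit at 80.0% of the members and 52.3% of all genes with a peak. The windows were not matched for this, and its effect on the differences was not tested. Over the 55 members with a peak and a sequence entry, the median GC content was 59.0% (quartiles 53.0 and 61.3%), against 61.0% over the 11125 such genes in all. The ratio of observed to expected CpG was 0.903 (0.738 to 1.01), against 0.749 (0.536 to 0.902). The CpG ratio and the WT pileup were nearly unrelated across these members (Spearman's rho 0.088, against 0.316 over all such genes, as a description).

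Several short sequences were more frequent in the member promoters than in the 15669 promoters of the same length. The windows were again not matched for their distance from a summit. At Rpl18 the WT summit lay at -2817 bp from the RefSeq start used. CCGGAA, the ETS core, lay on either strand in 29 of the 59 members (49.2%, 36.8 to 61.6), against 19.9% of all promoters. TCTCGCGA, bound by ZBTB33, lay in 10 (16.9%, 9.48 to 28.5), against 1.51%. These 10 were Rpl7a, Rpl12, Rpl26, Rpl27a, Rpl35, Rps3a1, Rps6, Rps15a, Rps19 and Rps28. AAGATGG, for YY1, lay in 9 (15.3%, 8.24 to 26.5), against 6.43%, but on the coding strand alone in 8.47% (3.67 to 18.4), an interval that includes the 3.78% of all promoters. A pyrimidine run at the start was present in 39 (66.1%, 53.4 to 76.9), against 43.7%. At least 1 of the ETS, ZBTB33 and YY1 sequences was found in 37 of the 59 (62.7%, 49.95 to 73.9), against 25.7% of all promoters. With promoters limited to those with a WT peak, the shares in the members and in all genes were 49.1% and 25.9% for ETS, 18.2% and 2.09% for ZBTB33, 16.4% and 6.68% for YY1, and 67.3% and 41.5% for the pyrimidine run. Searches were on both strands except for the pyrimidine run, and matches on opposite strands may overlap, as in the Rps6 stretch printed above.

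**Figure D5:**
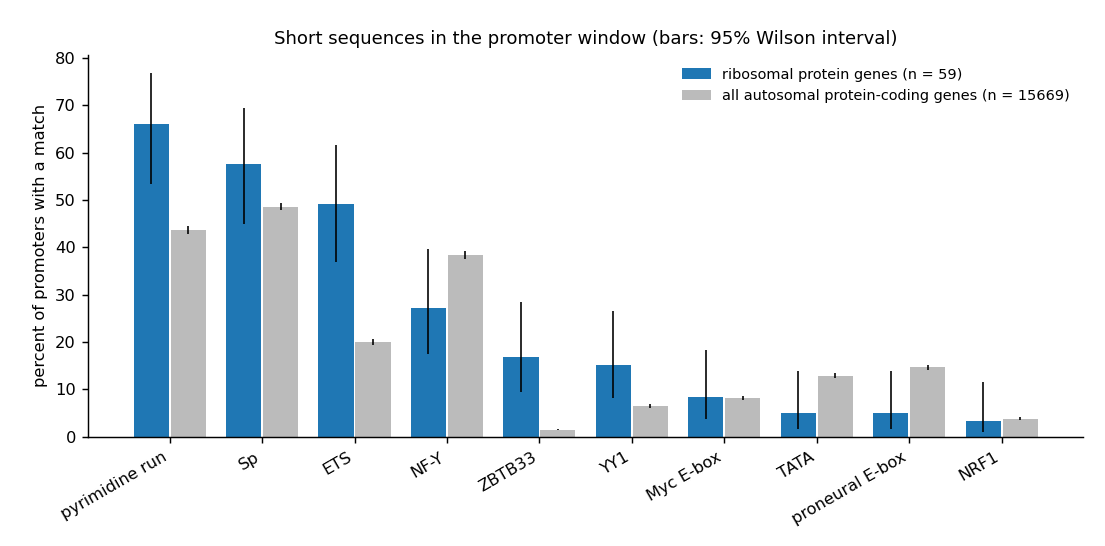
Percent of promoters (y axis) that hold each short sequence between 250 bases before and 50 after the RefSeq start, for 59 ribosomal protein genes (blue) and all 15669 autosomal protein-coding genes with an entry (grey); bars are 95% Wilson intervals. ETS, ZBTB33, YY1 and pyrimidine runs are higher in blue, whereas TATA and NF-Y are lower or overlap.

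Matches to ZBTB33 letters lay mostly before the start. In the members their median position was -22.5 (quartiles -48 and -13.8, in bases from the start) and 13 of 16 matches (81.2%) lay in the last 100 bases before the start, against 64.6% of the 393 matches over all promoters. Overlapping matches on opposite strands were counted separately, and the 16 came from 10 promoters, 5 of which held 2 or more. Over all promoters the 393 came from 237, of which 120 held 2 or more. The ETS matches had a median position of -51 in the members and -43 in all promoters. The 9 YY1 matches in the members had a median position of 21.5, downstream of the start, against -66.5 over all promoters. These are letters within a window and say nothing on binding.

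Other short sequences were less distinct. GGGCGG, for Sp factors, lay in 57.6% (44.9 to 69.4) of the 59 against 48.6% of all promoters, CCAAT, for NF-Y, in 27.1% (17.4 to 39.6) against 38.4%, and TATAAA in 5.08% (1.74 to 13.9) against 12.9%. CACGTG, the E-box bound by Myc, lay in 8.47% (3.67 to 18.4) against 8.11%, GCATGCGC, for NRF1, in 3.39% (0.935 to 11.5) against 3.78%, and CAGATG, an E-box used by proneural factors such as Atoh1, in 5.08% (1.74 to 13.9) against 14.6%. The interval included the share over all promoters for the first 5 of these and lay below it for CAGATG, which was held by 11.9% of the promoters with a WT peak.

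The median height of members differed by several tags with some of these sequences, in either direction, and this was not tested. Among the 55 members with a peak and an entry, the median WT pileup was 60 in the 27 with ETS letters and 56.5 in the 28 without. With ETS letters sought on the coding strand alone, it was 65 in the 21 with them and 55.5 in the others. It was 64 in the 10 with ZBTB33 letters and 58 in the 45 without, and 52 in the 9 with YY1 letters and 59.5 in the others. Rpl4, the lowest member, had none of the 3 but a pyrimidine run at its start, as seen in its stretch above. Rpl37 and Rpl15, the tallest, had ETS letters and a pyrimidine run. Rpl39l and Rps27rt, which had no peak, also held ETS letters in the window. Rpl39l had a GC content of 52.7% and a CpG ratio of 0.836, within the range of the members with a peak.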

How the data were processed

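The deposited files were 3 MACS2 lists of narrow peaks, in which the authors had pooled the 3 WT, 3 mutant and 2 het libraries before calling at a q-value cutoff of 0.05 (mm10). Per the file headers, WT and mutant were called from a folder named for STAR with modelled extensions of 90 and 88 bp, and het from a folder named for bowtie, with tags moved by 100 bp and extended by 200 bp. The submitters' processing notes name Trim Galore 0.4.1, STAR 2.5.0b, Bowtie 1.0.0, Picard 1.139 and MACS2 2.1.0.20150731, and the study's methods describe the bowtie mapping with the fixed extension. The deposited pileup is a signal, the fold enrichment a ratio to local background, and significance is given as -log10 of the q-value.

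For each gene the tallest peak with its summit within 1 kb of a GENCODE M21 protein-coding transcript start was used. Heights were scaled per 1000000 filtered tags, and a mutant over WT ratio was taken where peaks overlapped by 1 bp or more, with 1.5-fold as the limit for a call and an exact conditional binomial interval. Intervals (95%; Poisson for pileups, Wilson for shares, binomial order statistics for medians) cover counting or sampling over genes only, and extended tags are not independent molecules. The counting errors from the Poisson formula exceeded the observed scatter of the ratios. With 1 pooled list per genotype, no p-value was computed. Python 3.11.15 with pandas, numpy and scipy was used, and the placing of peaks and the ratios were tested on simulated data. Chromosome lengths of mm10 held every peak. The members and lists were chosen with earlier results of these data known. Genes named in the text are the 5 tallest and 5 lowest members, the 4 highest and 4 lowest ratios, the widest 3, members without a peak, the paralogues and the ribosomal protein genes left out by the rule; others named beside a group or a count were chosen after their values were seen. Some genes that this rule takes are not reported here.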

Additional observations from a re-analysis of the deposited data

How the results depend on the processing

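Of the recomputed values of the main results, 59 stayed within the interval of the reported value, or within 1.5 times of a count, and 6 did not. These settings changed the start sites, the 1 kb distance, the placing of peaks, the q-value limit, the list length, the members taken, the measure of height, the overlap of peaks, and the strand and window of the sequence search. With the lists cut to equal length, the median difference between het and WT in percentile among all peaks of a list changed from -2.36 to -0.154. With the widths of all peaks at a promoter summed, the median WT member changed from 51.5 bp wider than the median gene to 6.5 bp narrower, written -6.5. The count of members past the limit for mutant against WT rose from 0 to 1 (Rps19bp1) by fold enrichment and to 2 at a limit of 5/4-fold (Rps19bp1 higher and Rpl10a lower, 1.35% each, against 7.21% and 2.60% of all genes). Without the -ps symbols, a setting added after seeing the data, 94.9% of the members had a WT promoter peak. Correcting heights for tag positions already taken, also added after seeing the data, gave a count past 1.5-fold of 0 and moved the median log2 ratio from 0.03 to 0.06, and heights per base of extension moved it to 0.07. With the nearest peak in place of the tallest, again added after seeing the data, 1 member was past the limit (Rps19, lower in mutant), as were 397 of 13313 genes. No paired analysis was possible because each genotype was deposited as 1 pooled list, and leaving out single libraries was not possible for the same reason. For a single member the Poisson formula gave a median error of 0.27 for a log2 ratio, more than the ratios varied among members. The spread between libraries could not be measured.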

Other observations

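Some members stood at another rank in the het list than in both other lists. These were noticed after the values were seen and were not tested. A change of more than 10 points between WT and het was no more frequent among members (14.9%) than among all genes (15.6%). The het list also came from fewer tags and other calling settings. Rps26, a 40S protein, had pileups of 70 in WT and 80 in mutant and stood at the 76.05th and 83.9th percentiles of promoter peaks, but at the 60.6th in het with a pileup of 86. Rps13 stood at the 91.7th percentile in WT, the 89.6th in mutant and the 81.0th in het. Rps15 moved the other way, from the 32.4th in WT and 32.1st in mutant to the 44.9th in het. At Rpl38 the WT and mutant summits lay 505 and 482 bp downstream of the start, and the het summit 3 bp from it, within peaks of 1101, 963 and 1121 bp.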
